A study of Mus musculus with 9 samples.

Results

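Genes of the urea cycle and of amino acid breakdown were compared between liver tumours of mice with constitutively active Notch1 and control liver. The members were 53 genes named by symbol for their place in these pathways, and 47 of them were measured on a probe set that the array annotation assigns to 1 gene, among 19938 such genes in all. Ass1 and Ahcy were only on probe sets shared by several genes, and Sds, Sdsl, Tdh and Gls2 were not analysed here. The 47 were grouped by the amino acid they act on, and none had to pass a filter on low values. The series holds 9 Affymetrix Mouse Gene 1.0 ST arrays of total RNA, 1 array per sample. Of these, 4 are healthy livers of monotransgenic mice that carry the Rosa26-lsl-NICD allele and no Cre, so the allele itself is shared by both groups. The other 5 are hepatocellular carcinomas (HCC) of bitransgenic AFP-Cre/Rosa26-lsl-NICD mice, in which Cre is driven by the promoter of Afp, a gene of the fetal liver. Both genotypes were kept on a hybrid 129 x C57BL/6 background and sampled at an age of 6 to 12 months. The labels give no sex and do not say whether each array was a separate animal, so a p-value here weighs a difference against the spread of arrays, which may be technical.

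The adult liver takes amino acids apart and turns their nitrogen into urea. Transaminases and lyases move the nitrogen to glutamate and ammonia, the mitochondrial enzyme Cps1 joins ammonia with bicarbonate, and the steps after it build and cleave arginine to release urea. The carbon skeletons go to glucose, ketone bodies or the citric acid cycle, while the methionine cycle supplies methyl groups and passes its sulfur to cysteine and taurine. These enzymes are among the most abundant gene products of the hepatocyte, and many of the urea cycle and histidine genes are strongest near the portal vein.

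Values are log2 RMA intensities, given as mean ± SD with n = 4 control and n = 5 HCC arrays, and array numbers are those of the labels. Adjusted p-values are from limma over all 19938 genes. The median intensity of the 9 arrays lay between 91.5 and 101 linear units, and pairs of arrays correlated at 0.93 to 0.99 across probe sets. Over all probe sets HCC array 5 correlated at 0.970 to 0.982 with the control arrays and at 0.957 to 0.980 with the other tumours. The correlations of HCC arrays 1 to 4 with the control arrays were 0.930 to 0.973. Xist, the RNA of the inactive X chromosome, was between 10.68 and 11.76 on control arrays 1 to 3 and HCC arrays 1 and 2, and between 4.83 and 5.10 on control array 4 and HCC arrays 3 to 5. The tissue label was checked with 7 hepatocyte genes such as Alb and Ttr, whose mean level was 13.31 to 13.44 in the control livers and 13.17 to 13.43 in HCC.

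Csad was the one member that passed the threshold of 0.05, and it rose. None of the 47 fell by that test, but 45 of them had a negative log2 difference, against 57.5% of all genes, and 32 were lower at an unadjusted p under 0.05, against 9.85% of all genes. The background of the adjusted test was 0.858% of genes higher and 0.160% lower. In 14 members all 5 HCC arrays lay below all 4 control arrays, which is 29.8% of the members against 3.86% of all genes, and in 1 member, Csad, all HCC arrays lay above (5.63% of all genes). The median log2 difference of HCC minus control was -0.68 over the members and -0.03 over all genes. The number past the test depended on which arrays were kept. When HCC array 5 was left out, 21 members were lower and 1 was higher, against a background of 2.79% lower and 3.16% higher, and the 14 became 29 (background 7.80%). Under each of the other 8 omissions no member was lower past the threshold, and between 0.00% and 0.0602% of all genes were. In bulk tissue, fewer cells of a type and less RNA per cell cannot be told apart.

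**Figure D1:**
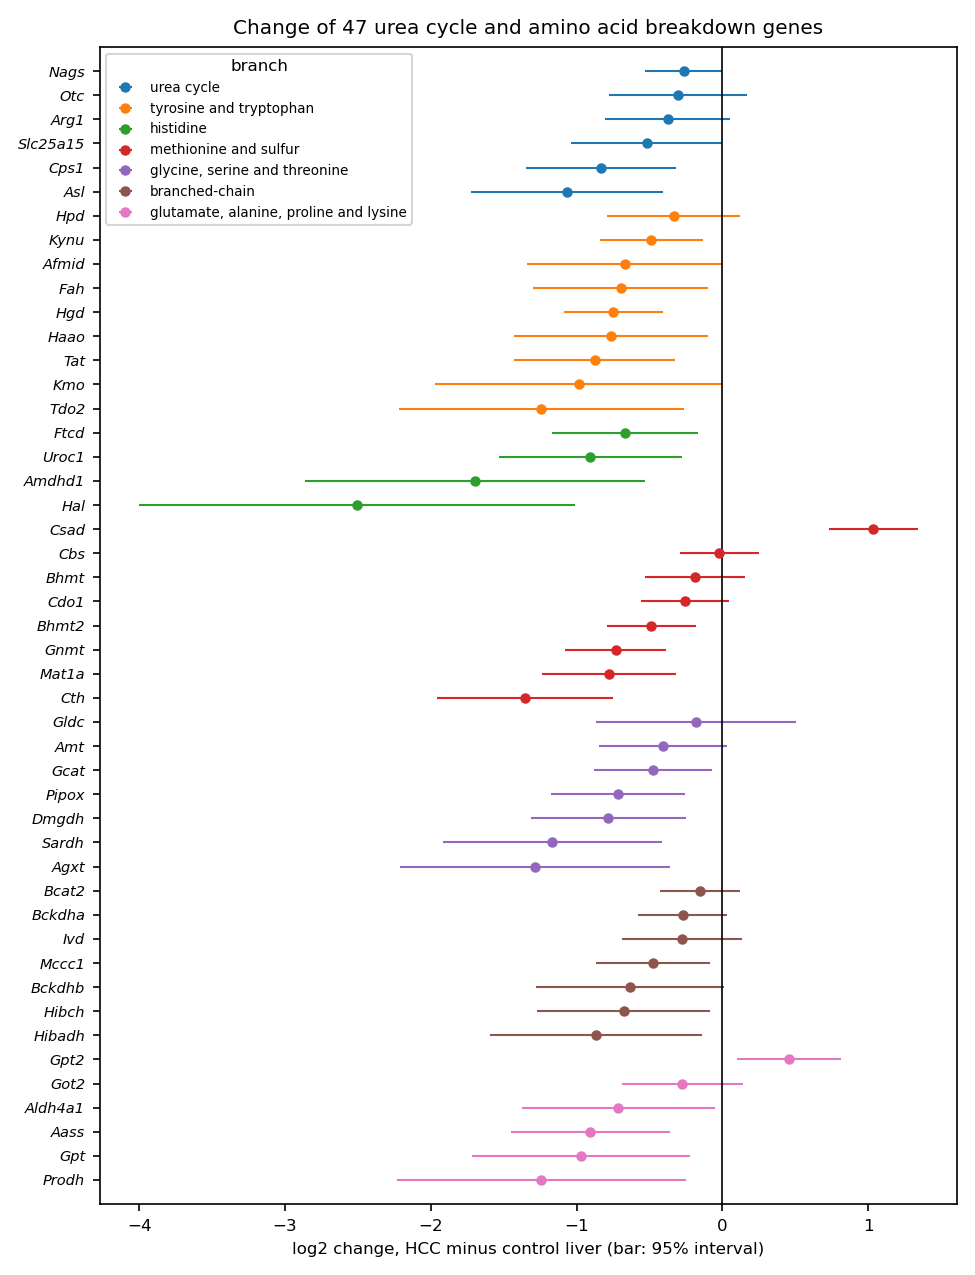
Log2 change (HCC minus control liver, x axis) of each of the 47 measured members (y axis, coloured by branch), with the 95% interval of limma as a bar. Csad at 1.04 and Gpt2 at 0.45 lie to the right of 0 and the other 45 to the left, down to Hal at -2.51.

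Csad makes hypotaurine, the precursor of taurine, from cysteine sulfinate. Its log2 intensity was 8.23, 8.08, 8.11 and 8.40 on control arrays 1 to 4 and 9.21, 8.89, 9.27, 9.61 and 9.22 on HCC arrays 1 to 5. Every HCC array was above every control array, HCC array 5 among them. The mean went from 8.21 ± 0.14 to 9.24 ± 0.26, a 2.05-fold rise (log2 change 1.04, SE 0.14, adjusted p = 0.0194). The call did not hold without control array 1, 2 or 3 (adjusted p = 0.0856, 0.0767 and 0.0923), while the log2 change stayed between 0.94 and 1.12 over the 9 omissions. Within the arrays of high Xist (control arrays 1 to 3, HCC arrays 1 and 2) the log2 difference was 0.91 and did not pass (adjusted p = 0.0566). It was 0.97 within those of low Xist, which hold control array 4 alone and HCC arrays 3 to 5.

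The promoter of Csad is shown because it belongs to the member that passed the test in the direction opposite to most others. RefSeq (GRCm38.p6) gives 2 starts for the gene on the minus strand of chromosome 15, and the 250 bases before each are printed 5′ to 3′, with matches to the motifs named further on in capitals. The first lies at chr15:102205053-102205302 and the second at chr15:102189044-102189293.
Csad first start: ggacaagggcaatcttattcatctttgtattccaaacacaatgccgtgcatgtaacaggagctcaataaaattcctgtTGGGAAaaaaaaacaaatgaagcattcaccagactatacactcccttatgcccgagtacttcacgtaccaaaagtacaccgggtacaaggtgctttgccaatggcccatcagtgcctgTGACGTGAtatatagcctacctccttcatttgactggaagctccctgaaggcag
Csad second start: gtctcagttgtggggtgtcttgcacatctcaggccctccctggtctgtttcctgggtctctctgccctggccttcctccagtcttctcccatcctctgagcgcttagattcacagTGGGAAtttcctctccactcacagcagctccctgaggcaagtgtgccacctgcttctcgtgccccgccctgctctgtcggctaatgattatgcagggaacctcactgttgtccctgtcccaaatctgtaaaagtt
The letters TGGGAA, the core bound by the Notch partner Rbpj, begin 172 bases before the first start and 135 bases before the second, and the shorter TGACGNNA form of the cyclic AMP element begins 54 bases before the first. TGGGAA also occurs before the starts of 24.1% of all genes in the table, so the matches are a description and not a site.

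The other 7 measured genes of methionine and sulfur breakdown ran from almost no difference to the second-lowest p of the members. Cth, which cleaves cystathionine to cysteine, was 11.39, 11.98, 11.93 and 11.39 on the control arrays and 10.03, 10.68, 9.99, 9.83 and 11.05 on the HCC arrays. The groups did not overlap, with HCC array 5 the highest of the tumours (log2 difference -1.36, SE 0.27, 2.56-fold, adjusted p = 0.0531). Gnmt, which disposes of surplus methyl groups by methylating glycine, was 12.75, 12.83, 12.77 and 12.82 in control liver and 11.81, 11.97, 11.97, 11.92 and 12.63 in HCC. HCC arrays 1 to 4 lay close together and HCC array 5 lay apart from them, just under the controls (log2 difference -0.73, adjusted p = 0.0591). Mat1a, the liver form of the enzyme that makes S-adenosylmethionine, was 13.20, 13.15, 13.12 and 13.10 against 12.16, 12.48, 12.46, 11.76 and 12.96 (log2 difference -0.78, adjusted p = 0.0981). Bhmt2, a methyltransferase that rebuilds methionine from homocysteine, was 10.27, 10.51, 10.50 and 10.41 against 9.53, 9.90, 9.98, 10.00 and 10.27. The highest tumour of Bhmt2 lay just under the lowest control (log2 difference -0.49, adjusted p = 0.108). Gnmt, Cth, Mat1a and Bhmt2 passed when HCC array 5 was left out, with adjusted p between 0.00112 and 0.0336.

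The steps before Cth and Csad lay nearer to the controls. Cbs, which feeds Cth with cystathionine, measured 10.97 ± 0.06 and 10.95 ± 0.24 in control liver and HCC (log2 difference -0.02, 95% interval -0.29 to 0.25). Cdo1, which makes the substrate of Csad from cysteine, measured 12.87 ± 0.10 and 12.61 ± 0.27 (-0.26, 95% interval -0.56 to 0.05). Bhmt, which does the same step as Bhmt2 with betaine as donor, gave -0.19, -0.23 and -0.19 on its 3 probe sets. The median difference of the 8 genes of this branch was -0.37.

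In the urea cycle all 6 measured members had a negative difference, with a median of -0.45, and none passed the test. Cps1, which makes carbamoyl phosphate, was 13.40, 13.28, 13.26 and 13.15 on the control arrays and 12.11, 12.83, 11.79, 12.47 and 12.99 on the HCC arrays. The groups of Cps1 did not overlap (1.78-fold, adjusted p = 0.106), and HCC arrays 1 and 3 were the lowest. Asl, which splits argininosuccinate to arginine, showed the largest difference of the cycle, with 11.91, 12.03, 12.07 and 11.53 in control liver and 10.26, 11.29, 10.52, 10.38 and 11.65 in HCC. HCC array 5 was above control array 4, so the groups of Asl overlapped (log2 difference -1.06, SE 0.29, adjusted p = 0.106). Otc, the step between Cps1 and the making of argininosuccinate, measured 11.70 ± 0.08 and 11.39 ± 0.46, and Arg1, which releases urea, 12.58 ± 0.15 and 12.20 ± 0.39. The mitochondrial ornithine carrier Slc25a15 measured 10.44 ± 0.18 and 9.92 ± 0.48. Nags, which makes the activator of Cps1, was 7.69, 7.84, 7.87 and 8.0 against 7.41, 7.44, 7.74, 7.45 and 7.88, the smallest difference of the cycle (-0.27, adjusted p = 0.243). Without HCC array 5, Cps1 (adjusted p = 0.0342) and Asl (0.0226) passed and the other 4 did not.

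All 9 measured genes of tyrosine and tryptophan breakdown had a negative difference, with a median of -0.75. Tat, which starts tyrosine breakdown, was 13.43, 13.42, 13.42 and 13.25 in control liver and 12.67, 11.76, 12.60, 12.27 and 13.22 in HCC (log2 difference -0.88, adjusted p = 0.111). The gap between the highest tumour and the lowest control was small, and HCC array 2 was the lowest. Hgd, which opens the ring of homogentisate, was 12.70, 12.70, 12.54 and 12.47 against 11.98, 11.53, 11.83, 11.64 and 12.30. It had the narrowest spread among the tumours of the 4 tyrosine genes, and its groups did not overlap (1.68-fold, adjusted p = 0.0558). Fah, the last step of the route, was 11.98 to 12.07 on the 4 control arrays against 10.59, 11.07, 11.88, 11.08 and 11.97 (adjusted p = 0.193). Its control arrays lay close together, and HCC arrays 3 and 5 lay just under them. Hpd, the step between Tat and Hgd, was 13.11, 12.93, 12.96 and 12.97 against 12.47, 12.14, 13.11, 12.45 and 13.13, so HCC arrays 3 and 5 were at or just above the highest control (log2 difference -0.33, adjusted p = 0.378).

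The promoter of Hgd is shown as that of the tyrosine gene with the lowest p. It lies at chr16:37579903-37580152 on the plus strand (RefSeq, GRCm38.p6), with a match to the C/EBP motif in capitals that begins 49 bases before the start.
Hgd: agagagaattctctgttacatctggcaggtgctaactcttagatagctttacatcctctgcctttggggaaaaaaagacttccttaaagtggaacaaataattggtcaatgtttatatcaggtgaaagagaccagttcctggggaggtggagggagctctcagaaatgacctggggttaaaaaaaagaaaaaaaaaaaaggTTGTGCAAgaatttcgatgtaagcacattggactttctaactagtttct

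On the tryptophan side, Tdo2, the rate-limiting dioxygenase, had the largest difference. It was 13.11, 12.89, 12.83 and 13.05 in control liver and 10.33, 11.76, 12.35, 11.34 and 12.85 in HCC (log2 difference -1.24, SE 0.43, adjusted p = 0.165). HCC array 5 lay inside the control range and HCC array 1 was far below it. The next steps of the kynurenine route, which leads to NAD, had differences of -0.99 (Kmo), -0.67 (Afmid), -0.76 (Haao) and -0.49 (Kynu), with adjusted p between 0.142 and 0.244. Without HCC array 5, Tat, Hgd, Kynu and Haao passed, with adjusted p between 0.00829 and 0.0480.

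The 4 genes of histidine breakdown, which act in sequence from histidine to glutamate, had the lowest branch median, -1.30. Hal, the lyase that opens the route, was 11.31, 11.03, 11.35 and 11.04 on the control arrays and 7.64, 9.35, 7.03, 8.53 and 10.83 on the HCC arrays. The groups did not overlap, with HCC array 5 close under the controls and HCC array 3 farthest below them (log2 difference -2.51, 95% interval -4.0 to -1.01, 5.69-fold, adjusted p = 0.101). Amdhd1, the third enzyme, was 9.87, 9.84, 9.93 and 9.89 against 7.30, 9.30, 6.79, 8.15 and 9.39, again with HCC arrays 1 and 3 lowest (3.24-fold, adjusted p = 0.130). Uroc1, between them, measured 8.85 ± 0.18 and 7.94 ± 0.60 (adjusted p = 0.131). Ftcd, which hands the last carbon to folate, was 9.63, 9.45, 9.44 and 9.38 against 8.30, 8.77, 8.41, 9.07 and 9.47, the smallest difference of the branch (-0.67, adjusted p = 0.151). Without HCC array 5 all 4 passed (adjusted p from 0.0110 to 0.0473).

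Hal had the largest difference of the 47 genes, so its promoter is shown. It lies at chr10:93488518-93488767 on the plus strand (RefSeq, GRCm38.p6), and the capitals mark a C/EBP match that begins 150 bases and a glucocorticoid element match that begins 36 bases before the start.
Hal: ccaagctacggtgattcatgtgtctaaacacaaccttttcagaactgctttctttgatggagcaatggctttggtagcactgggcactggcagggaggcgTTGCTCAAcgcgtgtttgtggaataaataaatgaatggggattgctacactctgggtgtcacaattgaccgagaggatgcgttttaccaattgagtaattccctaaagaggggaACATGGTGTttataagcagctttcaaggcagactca

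Of the 47 measured members, 39 had a promoter in the RefSeq table, and 8 motifs were searched on both strands of the 250 bases before the start. The liver factor motifs were rare in the members and in all 27025 genes with a promoter: CAAAGTCCA of Hnf4 was in 0 of 39 (0.451% of all genes), GTTAATNAT of Hnf1 in 1 (0.866%) and TGTTTAC of Foxa in 1 (3.54%). TTGCNNAA of C/EBP was in 3, namely Aass, Hal and Hgd (10.8%), and ACANNNTGT of the glucocorticoid element in 5 (6.76%). The cyclic AMP element TGACGTCA was in 0 (1.77%), and its shorter form TGACGNNA, which also matches the full element, was in Csad alone (6.5%). TGGGAA of Rbpj was in 8, or 20.5% of the members against 24.1% of all genes. Such counts describe these letters in this window and nothing about the factors.

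Among the genes of glycine, serine and threonine breakdown all 7 measured had a negative difference, with a median of -0.72. Agxt, which detoxifies glyoxylate to glycine in the peroxisome, was 10.59, 10.92, 10.86 and 10.66 in control liver and 8.47, 10.30, 9.64, 8.57 and 10.37 in HCC. Its groups did not overlap, with HCC arrays 1 and 4 lowest (log2 difference -1.29, SE 0.41, adjusted p = 0.142). Pipox, which oxidises sarcosine and pipecolate, was 11.35, 11.16, 11.24 and 11.24 against 9.99, 10.35, 10.77, 10.41 and 11.15 (log2 difference -0.72, adjusted p = 0.114). Its highest tumour was just under the lowest control. Sardh and Dmgdh, the mitochondrial enzymes that take methyl groups from sarcosine and dimethylglycine, measured 10.73 ± 0.06 and 9.56 ± 0.74 (Sardh) and 12.10 ± 0.12 and 11.32 ± 0.51 (Dmgdh). Both had HCC array 5 within the control range and passed without it, with adjusted p of 0.00631 and 0.00993.

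The glycine cleavage system stood nearer to the controls. Gldc, its decarboxylase, was 8.87, 9.17, 8.74 and 8.20 against 8.46, 9.35, 7.92, 8.16 and 8.94, with broad overlap (log2 difference -0.18, 95% interval -0.87 to 0.51), and it was 0.02 with the Xist level as a covariate. Amt, its aminomethyltransferase, measured 8.35 ± 0.17 and 7.94 ± 0.40. Outside that system, Gcat, of threonine breakdown, measured 7.92 ± 0.07 and 7.44 ± 0.38. Gcat passed without HCC array 5 (adjusted p = 0.0482), as did Pipox (0.0199).

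Branched-chain amino acid breakdown was the branch in which no member had groups apart. All 7 differences were negative, with a median of -0.47. Hibadh, of the valine route, had the largest, at 10.82, 10.79, 10.90 and 10.93 in control liver and 9.25, 9.55, 10.51, 9.69 and 10.97 in HCC. HCC array 5 was above every control and HCC array 3 next under them (log2 difference -0.87, adjusted p = 0.186). Bcat2, the first transaminase, was 7.42, 7.55, 7.81 and 7.60 against 7.21, 7.32, 7.69, 7.62 and 7.36, with HCC arrays 1, 2 and 5 below every control and HCC arrays 3 and 4 within the control range (log2 difference -0.15, adjusted p = 0.504). The subunits of the branched-chain ketoacid dehydrogenase measured 7.99 ± 0.10 and 7.72 ± 0.27 (Bckdha) and 11.08 ± 0.26 and 10.45 ± 0.60 (Bckdhb). Ivd and Mccc1 of the leucine route had differences of -0.28 and -0.47, and Hibch of the valine route -0.68. Without HCC array 5 Hibadh passed (adjusted p = 0.0365).

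Among the transaminases and the proline and lysine genes, Gpt2 stood opposite to the other 5. Gpt2, the mitochondrial alanine aminotransferase, was 9.75, 9.57, 9.82 and 9.68 on the control arrays and 9.98, 9.68, 10.49, 10.29 and 10.35 on the HCC arrays. HCC array 2 lay within the control range and the other tumours above it (log2 difference 0.45, SE 0.16, adjusted p = 0.166). Gpt, the cytosolic form, was 9.93, 9.90, 9.89 and 9.71 against 8.07, 9.51, 9.09, 8.15 and 9.62, with no overlap (log2 difference -0.97, SE 0.33, adjusted p = 0.160). Aass, which starts lysine breakdown, was 11.84, 11.81, 11.86 and 11.58 against 10.52, 10.88, 11.27, 10.20 and 11.47, also with no overlap (log2 difference -0.91, adjusted p = 0.103). Prodh, which starts proline breakdown, was 9.98, 9.64, 9.67 and 9.78 against 7.91, 8.18, 9.24, 7.46 and 9.84, with HCC array 5 among the controls (log2 difference -1.24, adjusted p = 0.170). Aldh4a1, the step after Prodh, measured 8.35 ± 0.20 and 7.64 ± 0.63, and Got2, the mitochondrial aspartate aminotransferase, 11.17 ± 0.06 and 10.90 ± 0.39. Aass (adjusted p = 0.0300) and Prodh (0.0351) passed when HCC array 5 was left out.

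**Figure D2:**
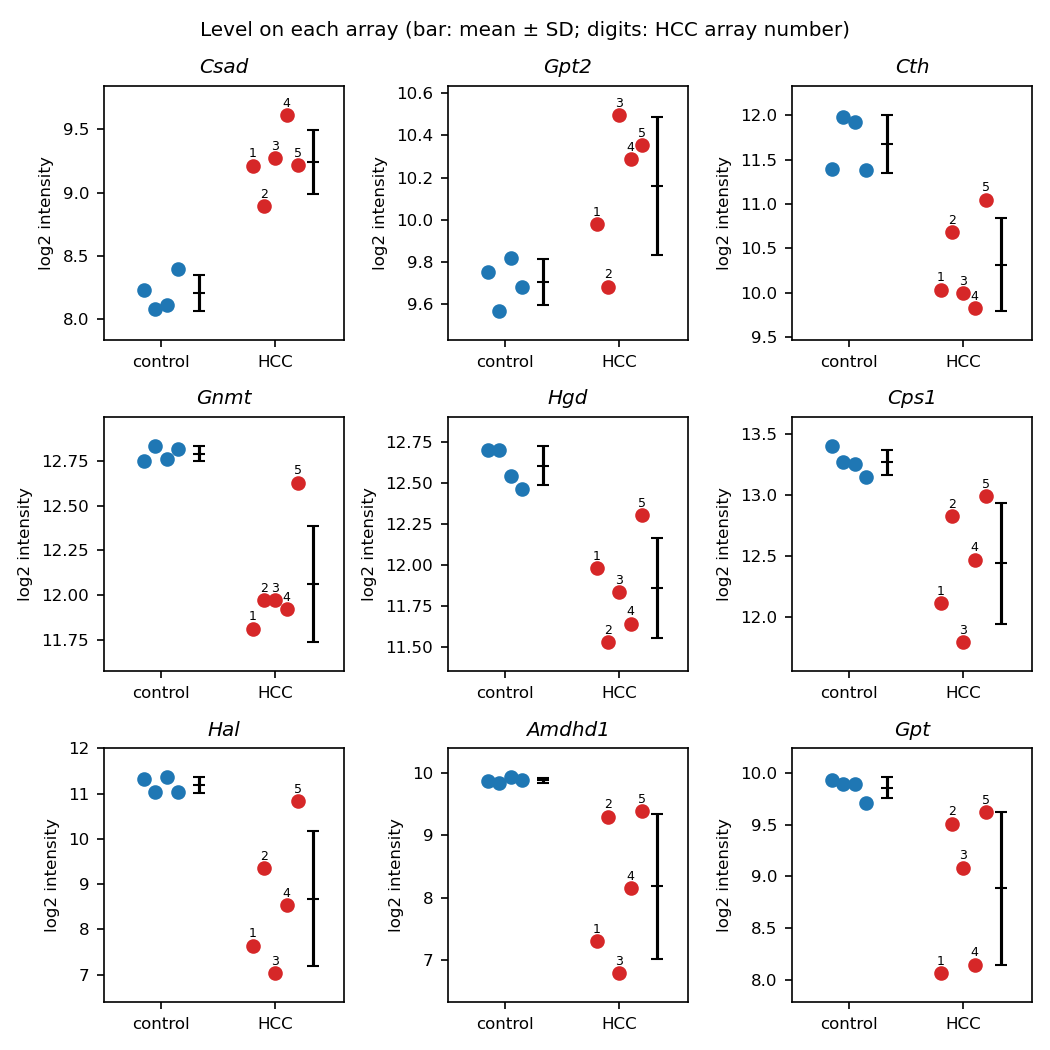
Log2 intensity (y axis) of 9 members on each control array (blue) and HCC array (red, with its number), with the mean ± SD of each group in black; each panel has its own scale. All tumours lie above the controls for Csad, 4 of 5 do for Gpt2, and all lie below for the other 7 genes, with HCC array 5 the nearest to the controls in each of those 7.

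Members were set against a partner gene of like name or reaction within each array, since a log2 ratio cancels what the arrays share. In 3 of 8 pairs the ratios of the groups did not overlap, although none passed after adjustment over the 8 (adjusted p = 0.0635 for each, exact permutation, two-sided). The ratio of Gpt to Gpt2 was 0.18, 0.33, 0.07 and 0.02 in control liver and -1.91, -0.17, -1.41, -2.14 and -0.73 in HCC, a difference of -1.42 (exact p = 0.0159). All 5 tumours thus held less Gpt signal relative to Gpt2 than any control. The ratio of Got2 to Got1, the cytosolic form of the same transaminase, was -0.72, -1.12, -1.48 and -0.07 against 0.49, 0.20, 2.05, 2.00 and 0.86, a difference of 1.97 (exact p = 0.0159). Here the cytosolic partner carried the difference, with a log2 change of -2.24 for Got1 (adjusted p = 0.0460) and -0.27 for Got2. The ratio of Agxt to the mitochondrial Agxt2 differed by -1.12 (exact p = 0.0238). Bhmt to Bhmt2 differed by 0.30 (exact p = 0.0476, adjusted p = 0.0952), and the ratios of Arg1 to Arg2, Bcat2 to Bcat1, Tdo2 to Ido2 and Prodh to Prodh2 had exact p from 0.278 to 0.897. The smallest p this permutation can give is 0.00794. Without HCC array 3, 5 ratios passed after adjustment, those of Gpt, Got2, Agxt, Bhmt and Tdo2 to their partners (adjusted p = 0.0457 each).

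**Figure D3:**
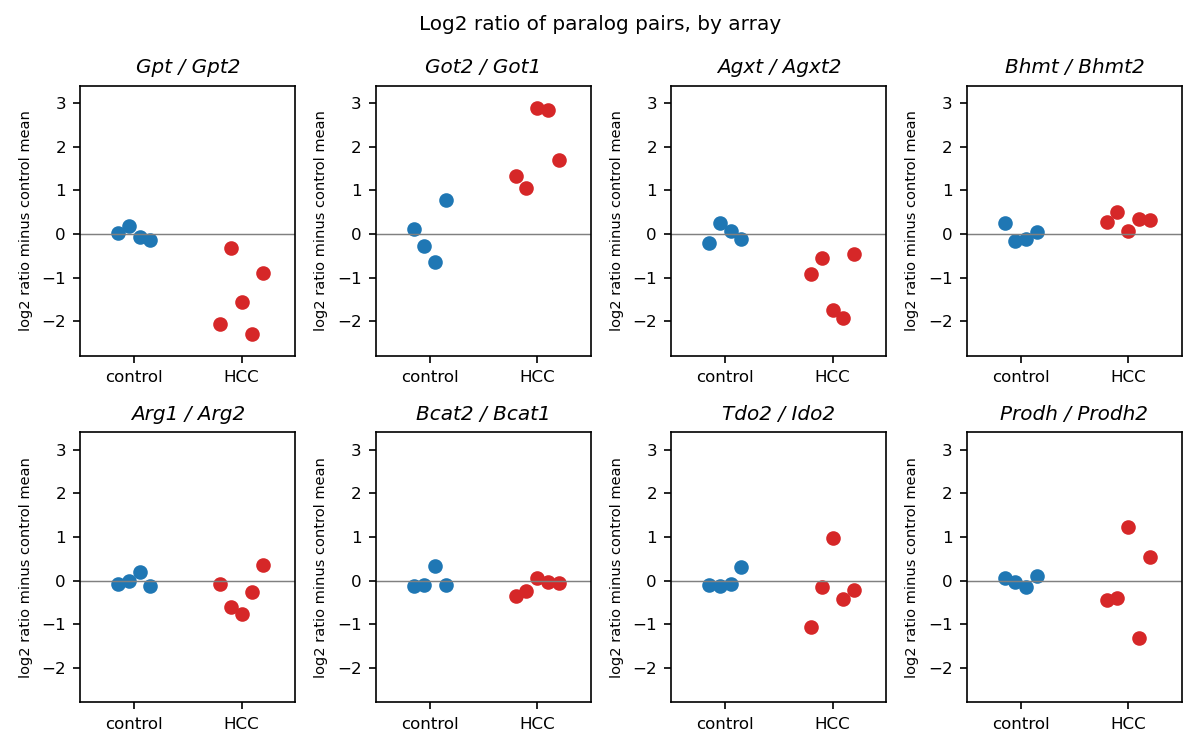
Log2 ratio of each member to its partner gene, minus the mean ratio of the control arrays (y axis), for the control (blue) and HCC (red) arrays of 8 pairs. The groups lie apart for Gpt to Gpt2 (difference -1.42), Got2 to Got1 (1.97) and Agxt to Agxt2 (-1.12), and overlap in the other 5 pairs.

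The tumours differed among themselves far more than the control livers did. The SD was larger in HCC than in control liver in 47 of 47 members, against 67.9% of all genes, and the median SD was 0.48 in HCC and 0.11 in control liver (0.19 and 0.14 over all genes). The median deviation of the 47 members from the control mean was -0.98, -0.64, -0.52, -0.87 and -0.03 on HCC arrays 1 to 5. HCC array 5 was the highest tumour in 39 of 47 members and the lowest in none, and it was within the control range in 19 (55.4% of all genes), below it in 16 (25.2%) and above it in 12 (19.4%). HCC array 1 was the lowest tumour in 22 members. Which tumour was highest or lowest was not counted over all genes, so these 2 rankings have no background.

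Which branch was lowest differed between tumours. On HCC array 3 the median deviation was -2.26 for histidine breakdown and -0.03 for branched-chain breakdown. HCC array 2 showed the least extreme histidine values of arrays 1 to 4, at -0.67, while its tyrosine and tryptophan genes were at -0.94. HCC array 4 was at -1.51 for the transaminase, proline and lysine group and at -0.49 for the urea cycle. HCC array 1 was at -2.09 for histidine and -0.68 for the urea cycle. HCC array 5 ranged from -0.24 (histidine) to 0.10 (transaminase, proline and lysine group). These are medians of 4 to 9 genes on single arrays, with no test.

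**Figure D4:**
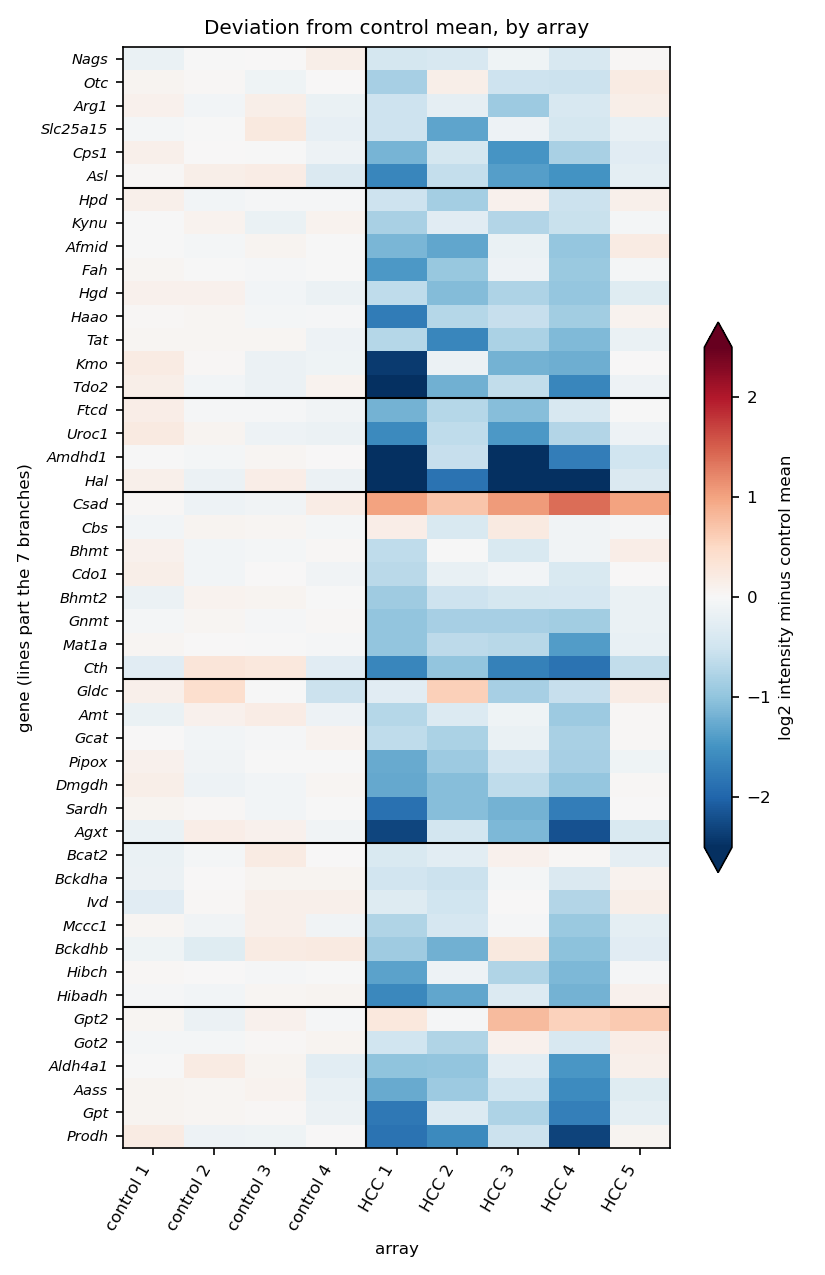
Log2 intensity minus the control mean (colour, from blue for lower to red for higher) of the 47 members (rows, parted by lines into the 7 branches) on each of the 9 arrays (columns). The control columns and HCC array 5 are mostly pale, with a member median of -0.03 on HCC array 5, while HCC arrays 1 to 4 are mostly blue (-0.98 to -0.52) and the row of Csad is red on all 5 tumours.

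Further genes of amino acid breakdown that are not members were measured as well. Of 37, 35 had a negative difference (94.6%, against 57.5% of all genes). In 9, all HCC arrays lay below all control arrays (24.3%, against 3.86%). Only 1 passed, Got1, which was lower (2.7%, against 0.160%). Got1 moves nitrogen between aspartate and glutamate in the cytosol and was 11.84, 12.24, 12.68 and 11.32 in control liver and 10.20, 10.23, 9.22, 8.78 and 10.48 in HCC, a 4.73-fold fall that passed without HCC array 5 and under none of the other 8 omissions (adjusted p up to 0.141). Prodh2, of hydroxyproline breakdown, measured 8.89 ± 0.12 and 7.73 ± 0.48 (adjusted p = 0.0501), and Slc25a13, the aspartate carrier that serves the urea cycle, 10.32 ± 0.12 and 9.47 ± 0.42 (adjusted p = 0.0761). The phosphatase Ppm1k and the kinase Bckdk switch the branched-chain dehydrogenase on and off. Ppm1k measured 10.73 ± 0.21 and 9.46 ± 0.54 (adjusted p = 0.0559) and Bckdk 6.96 ± 0.24 and 7.38 ± 0.07 (adjusted p = 0.101), and neither overlapped between the groups. Bckdk was the one gene of the 37 with all HCC arrays above all control arrays (2.7%, against 5.63% of all genes). Without HCC array 5, 17 of the 37 passed, all lower (45.9%, against 2.79% of all genes).

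Genes that make amino acids or use them for growth, such as Phgdh, Asns, Odc1 and Cad, are the counterpart of the members. Of 15 measured, 8 had a negative difference (53.3%, against 57.5% of all genes). The median difference was -0.02, and the single genes ran from -0.89 to 0.79. None passed (0.160% of all genes lower and 0.858% higher) and none had groups apart (3.86% and 5.63%). By limma 2 of the 15 were lower (13.3%, against 9.85% of all genes) and 0 higher (10.5% of all genes) at an unadjusted p under 0.05. Of 17 measured regulators none passed either, and their median was -0.05. At an unadjusted p under 0.05, 3 were lower and 3 higher (17.6% each, against 9.85% and 10.5% of all genes). Hnf4a measured 10.11 ± 0.09 and 9.90 ± 0.44 and Cebpa 9.86 ± 0.16 and 9.95 ± 0.26, both with adjusted p above 0.5. Ppara, a receptor that governs fasting metabolism, was the one regulator whose groups did not overlap (10.30 ± 0.28 and 9.13 ± 0.76, adjusted p = 0.130). That is 5.88% of the 17, against 3.86% of all genes with all HCC arrays below all control arrays. The glucagon receptor Gcgr measured 9.50 ± 0.21 and 8.16 ± 1.05, with 9.46 on HCC array 5, and it passed without that array (adjusted p = 0.0461).

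Markers of cycling cells and of other cell types were set beside these differences. The 5 cycling-cell genes all had every HCC array above every control array, against 5.63% of all genes. Their mean level was 6.29 to 6.75 in control liver and 9.61, 8.24, 7.97, 9.11 and 7.77 on HCC arrays 1 to 5. Of 5 measured bile duct markers 3 lay above the controls on every tumour (60%, against 5.63% of all genes). The mean level of the 5 was 6.13 to 6.20 in control liver and 6.55 to 8.19 in HCC. HCC array 1 was highest by this mean, with Cftr at 10.85 there and 5.57 to 6.82 on the other tumours. By the median deviation from the control mean, HCC array 2 was highest (1.82, against 1.67 on HCC array 1). The mean of 7 macrophage markers was 8.24 to 9.34 in control liver and 6.95 to 9.72 in HCC, that of 6 endothelial markers 8.07 to 8.38 and 7.41 to 8.47, that of 6 stellate cell and fibroblast markers 7.92 to 8.02 and 7.16 to 7.98, and that of 6 lymphocyte markers 6.65 to 6.88 and 6.42 to 7.21. HCC arrays 1 and 4, where the members were lowest by their median, had the highest cycling-cell levels. The part of these cells in the differences of the members was not tested.

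The differences were also set out by the Xist level. Within the arrays of high Xist, a comparison added after seeing the data, 41 of 47 members had both HCC arrays below all 3 control arrays, against 18.8% of all genes, and the median difference was -0.90. Within the arrays of low Xist, 20 of 47 members had all 3 HCC arrays below the 1 control array, against 32.0% of all genes, and the median difference was -0.43. HCC array 5, where the median deviation of the members was -0.03, is among the arrays of low Xist. With the Xist level as a covariate over all 9 arrays, Csad passed (0.94, adjusted p = 0.0209) and no member was lower past the threshold (background 1.01% higher and 0.160% lower).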

How the data were processed

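Each of the 9 arrays is 1 sample of total RNA. The authors deposited 1 linear intensity per probe set, made with RMA per the submitters' processing notes and handled in GenePattern and R per the series' design text, with versions not given in the sources used here. Log2 was taken here of the deposited intensities, with no pseudocount or filter. Of 35512 probe sets, 21789 had 1 gene symbol in the array annotation, 1621 several and 12102 none. Symbols were updated through RefSeq, and for a gene with several probe sets the one with the highest mean log2 value was kept, leaving 19938 genes. Groups were compared with limma 3.58.1 in R 4.3.3 (lmFit and eBayes, Benjamini-Hochberg over all genes, threshold 0.05). The ratios of members to partner genes were compared with exact two-sided permutation of the array labels.

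The members and lists were chosen with earlier results of these data known. Values on every array are given for members past the threshold, those whose groups did not overlap, and in each branch those with the largest and the most positive difference. Related genes were named if past the threshold, if the groups did not overlap or as a partner in a pair, at most 4 a list. Bckdk, Gcgr, Hnf4a and Cebpa fall outside this rule and were picked with their values in view. The steps were tested on simulated data. Alternatives were array medians subtracted, quantile normalisation, array weights, a moderated fit with trend, the mean of all probe sets, only genes above the median, Xist as a covariate, the replicate number as a block and each array left out. The number of arrays limits the precision.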

Additional observations from a re-analysis of the deposited data

Results flagged for a closer look

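In 6 of 92 groups of 4 or 5 values tested, 1 array stood apart from the rest by Dixon's criterion, where chance flags about 1 in 20 groups, or 4.6. Gnmt was 12.63 on HCC array 5 and 11.81 to 11.97 on the other tumours. On control array 4, Aass was 11.58 (11.81 to 11.86 on the other controls), Tat 13.25 (13.42 to 13.43) and Gpt 9.71 (9.89 to 9.93). The log2 ratio of Bcat2 to Bcat1 was 1.91 on control array 3 (1.43 to 1.48 on the other controls). The log2 ratio of Tdo2 to Ido2 was 5.15 on control array 4 (4.72 to 4.77 on the others).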

How the results depend on the processing

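With 4 and 5 arrays, the count of members past the threshold depended on the setting more than their direction did. Against 0 lower members in the reported fit, 7 were lower with array weights (1.23% of all genes), 3 among genes above the median only (0.933%), 2 after quantile normalisation (0.246%) and 8 in the arrays of high Xist (0.567%). For the other breakdown genes (1 lower) the same settings gave 5, 3, 1 and 9, with 2 for the mean of all probe sets (0.201% of all genes). In the arrays of high Xist 41 members had all tumours below all controls, 0 were higher, Csad was at 0.91 (adjusted p = 0.0566), and the medians were -1.21 for tyrosine and tryptophan, -0.58 for methionine and -1.08 for glycine. In those of low Xist, which hold 1 control array, 2 members had all tumours above the control (19.1% of all genes), and Csad was at 0.97. Both sets were chosen after seeing the data. Gldc changed sign, to 0.0248 with Xist as a covariate and 0.14 in the arrays of low Xist. The replicate number as a block, which leaves out HCC array 5, gave 9 members lower (1.10% of all genes), 29 with all tumours below and 7 other breakdown genes lower. Same-numbered arrays deviated together for 1 of 4 numbers, number 2 (correlations -0.0040, 0.32, -0.029 and -0.083 for numbers 1 to 4). The labels give these arrays only a number in common, and whether they share more was not tested.

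Leaving out each array in turn gave 0 to 21 members lower, 0 to 1 higher, 14 to 29 with all tumours below and 1 to 2 with all above, 0 to 17 other breakdown genes lower, and 0 to 1 regulators lower and 0 to 1 higher. Over the same omissions 0.00% to 2.79% of all genes were lower and 0.0502% to 3.16% were higher. Csad ranged from 0.94 to 1.12. The ratio differences ranged from 1.73 to 2.23 (Got2 to Got1), -1.70 to -1.21 (Gpt to Gpt2), 0.24 to 0.38 (Bhmt to Bhmt2), -1.29 to -0.92 (Agxt to Agxt2), -0.46 to 0.0522 (Tdo2 to Ido2) and -0.41 to 0.23 (Prodh to Prodh2). Tdo2 to Ido2 changed sign without HCC array 1 (0.0522), and Prodh to Prodh2 without HCC array 1 (0.0139) or 4 (0.23). Beyond the smaller number of arrays or genes, the cause was not tested.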
